A study of Mus musculus with 3 samples.

Results

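The enzymes and regulators by which a cell makes cholesterol and fatty acids were compared in 3 mononuclear phagocyte populations of the mouse. The list named 33 genes, of which 32 had at least 1 probe with a value, out of 19087 genes measured in all, and the expression of Acat2 was not analysed here. A gene entered when its symbol in the annotation of the array was on the list, and its value is the mean of its probes. Entry to the list reads only the gene names, whereas the row that holds each probe was found from the values, as described below.

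The cells were peripheral blood monocytes (PBMo), lung macrophages (lung Mϕ) and lung dendritic cells (lung DC) of untreated wild-type C57BL/6N mice of both sexes, 6 to 9 weeks of age. PBMo were sorted from blood as CD11b+ CD115+ cells of low side scatter. Lung cells carrying CD11c were enriched with magnetic beads from digested lungs and then divided by autofluorescence, which was high in lung Mϕ and low in lung DC. The labels call the macrophages alveolar, whereas the methods describe sorting from whole lung homogenate, so that lung Mϕ can hold macrophages of the air spaces and of the interstitium. RNA of 32 mice was combined in pools of 4, which gave 8 pools per cell type, and was amplified before labelling. The arrays carried both dyes and were 12 in number, 4 for each pair of cell types with the dyes balanced. Each deposited value is the log2 ratio of the cell type named first to the one named second, and this direction is taken from the sample titles.

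The values are ratios without levels and without replicates. For each spot there is 1 ratio per comparison, and the third comparison is the difference of the other two, with a largest deviation of 1.07e-14, so the comparisons are contrasts of the same model and share all 3 cell types. No SD between pools, no test and no p-value could be computed. The only measured error is the spread between probes, which covers the array and not the mice. The order of the spots was itself chosen for agreement between probes of the same transcript. Across the probes of 1 transcript, the SD was taken for 217 transcripts that had 8 probes or more, and its median was 0.05 in both comparisons with PBMo and 0.06 in the third, on the log2 scale. For the probes of 1 gene the range was taken, a measure that cannot be set directly against the SD. Over the 21 genes of the list with several probes, the median range between the lowest and highest probe was 0.27 for lung Mϕ over PBMo, 0.28 for lung DC over PBMo and 0.16 for lung Mϕ over lung DC. Over all 8343 genes with several probes it was 0.21, 0.19 and 0.21. In bulk RNA, fewer cells of a type and less RNA per cell cannot be told apart.

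The sorted cells carried the markers of their labels, but lung DC also carried many of those of alveolar macrophages. Against PBMo, all 10 measured markers of alveolar macrophages passed 2-fold upwards in lung Mϕ, and 7 of them did so in lung DC too. Their median log2 ratio in lung DC over PBMo was 3.34, and Fabp1 at 5.09 was the highest of all 19087 genes there. Of 12 dendritic cell markers, 8 passed 2-fold upwards in lung DC against PBMo, with a smaller median of 1.62. In lung Mϕ over lung DC the medians were 2.13 for the alveolar macrophage markers and -1.87 for the dendritic cell markers. Against PBMo, all 8 measured monocyte markers were more than 2-fold lower in lung Mϕ, whereas 4 of them were in lung DC. Of all 19087 genes, 1044 were more than 2-fold higher and 857 more than 2-fold lower in lung Mϕ over PBMo. For lung DC over PBMo these numbers were 767 and 209. The shares of all genes above 0 were 50.9% and 51%. Markers of other cells moved as well. In lung DC over PBMo, the 8 NK cell markers had a median log2 ratio of 0.95 and the 6 T cell markers one of 1.68, whereas all 7 neutrophil markers and 4 of 6 platelet markers were more than 2-fold lower. In lung Mϕ over PBMo, all 7 neutrophil markers, 6 of 8 NK cell markers and 5 of 6 platelet markers were more than 2-fold lower. Of 5 measured B cell markers, Cd79b at -3.71 and Ms4a1 at -2.19 were more than 2-fold lower there. In lung DC over PBMo only Blnk of these 5 passed 2-fold, at 3.23, and it was at -3.25 in lung Mϕ over lung DC. In lung Mϕ over lung DC the medians were -2.92 for the NK cell markers and -2.16 for the T cell markers. Of 9 immediate early and dissociation genes, 2 passed 2-fold upwards and 1 downwards in lung Mϕ over PBMo, and 3 upwards in lung DC over PBMo, with Hspa1a at 4.18. The gene that passed downwards was Nr4a1, which was also counted among the monocyte markers. Of 8 markers of alveolar type II cells, which make large amounts of lipid, 2 passed 2-fold upwards and 1 downwards in lung Mϕ over PBMo and 3 upwards in lung DC over PBMo, with medians of 0.13 and 0.32. Among them the surfactant genes Sftpc, Sftpd, Sftpa1 and Sftpb were at 3.16, 1.33, 0.95 and 0.12 in lung Mϕ over PBMo, and Lpcat1 was at -1.33. Of 4 club and ciliated cell markers, 2 passed 2-fold upwards in each lung population against PBMo, Scgb1a1 at 2.17 and 2.37 and Cyp2f2 at 1.51 and 1.49. All 7 measured cell cycle genes were above 0 in both lung populations against PBMo, lung Mϕ with a median of 0.89 and lung DC with one of 1.25. These lists move in the same comparisons as the synthesis genes below, and their part in those results was not tested.

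Cholesterol is built from acetyl-CoA through mevalonate, farnesyl diphosphate, squalene and lanosterol, and fatty acids are built from acetyl-CoA by a carboxylase and a synthase and are then lengthened and desaturated. Both branches are under the control of the sterol regulatory element binding proteins, which the genes Srebf1 and Srebf2 encode. SCAP carries these membrane proteins to the Golgi, where they are cleaved, and the INSIG proteins hold them back in the endoplasmic reticulum when sterols are plentiful. In the lung, macrophages take up and break down surfactant, which is rich in phospholipid and cholesterol, so that the balance of lipid made, taken up, exported and burnt is a known feature of these cells.

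The promoters of these genes are known for binding sites of the sterol regulatory element binding proteins beside boxes for the factor NF-Y. RefSeq promoters on GRCm38.p6, from 250 bases before to 50 bases after a start site, matched 27 of the 33 genes with 37 promoters. Searched on both strands, the letters CCAAT of the NF-Y box were present for 22 of these 27 genes, 81.5%, against 41.1% of all 27025 genes with a promoter. A gene was counted when any of its promoters had the letters. Counted by promoter, 23 of the 37 had them, against 37.4% of all 32851 promoters. The genes without CCAAT were Acaca, Acat2, Elovl6, Fads2 and Scap. The E-box CACGTG was present for 6 of the 27 genes, 22.2%, against 8.09% of all genes, and these were Dhcr7, Elovl5, Hsd17b7, Insig1, Sc5d and Scap. The letters TCACNCCAC, a form of the sterol regulatory element, were found for Hmgcs1 only, 3.7% of the 27, against 1.44% of all genes. In the promoters printed below no matches overlapped. A match is a description of the letters and not a site shown to be used.

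Shown are the promoter with the match to the sterol regulatory element and those of the 2 sterol enzymes with the highest ratios in lung Mϕ over PBMo, 5′ to 3′ on the strand of the gene, with matches to the 3 motifs on either strand in capitals. The Hmgcs1 promoter lies at chr13:119690101-119690400 on the plus strand, the Hsd17b7 promoter at chr1:169969156-169969455 on the minus strand, and that of the last of the 3 Dhcr7 start sites at chr7:143829964-143830263 on the plus strand.
Hmgcs1: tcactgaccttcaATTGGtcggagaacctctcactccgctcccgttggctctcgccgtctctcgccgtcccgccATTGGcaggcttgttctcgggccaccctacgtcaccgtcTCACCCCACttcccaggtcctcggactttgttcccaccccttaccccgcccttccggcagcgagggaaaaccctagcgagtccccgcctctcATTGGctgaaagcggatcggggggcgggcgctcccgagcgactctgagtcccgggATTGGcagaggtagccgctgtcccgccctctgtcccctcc
Hsd17b7: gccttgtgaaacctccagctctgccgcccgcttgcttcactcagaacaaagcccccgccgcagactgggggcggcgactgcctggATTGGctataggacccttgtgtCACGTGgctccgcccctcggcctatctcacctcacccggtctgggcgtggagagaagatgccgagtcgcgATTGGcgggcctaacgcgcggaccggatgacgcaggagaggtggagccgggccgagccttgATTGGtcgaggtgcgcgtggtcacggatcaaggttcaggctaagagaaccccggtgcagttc
Dhcr7: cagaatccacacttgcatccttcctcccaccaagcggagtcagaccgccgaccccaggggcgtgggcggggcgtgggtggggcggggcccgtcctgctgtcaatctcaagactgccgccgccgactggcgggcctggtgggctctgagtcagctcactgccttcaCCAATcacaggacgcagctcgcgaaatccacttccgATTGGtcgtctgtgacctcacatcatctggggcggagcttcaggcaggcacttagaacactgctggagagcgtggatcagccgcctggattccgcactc

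In Hmgcs1 the sterol regulatory element begins 137 bases before the start site, and boxes for NF-Y, read as ATTGG on this strand, begin 237, 176 and 45 bases before it and 11 bases after it. Hsd17b7 has boxes that begin 165, 73 and 12 bases before the start site and an E-box that begins 143 bases before it. Dhcr7 has boxes that begin 85 and 49 bases before this start site, and its E-box lies at another start site. Neither of the other Dhcr7 promoters has the letters CCAAT on either strand.

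As a list, the synthesis genes lay above 0 in both lung populations against PBMo, with small ratios. In lung Mϕ over PBMo, 27 of 32 genes were above 0, where 50.9% of all genes were, and their median log2 ratio was 0.27. In lung DC over PBMo, 25 of 32 were above 0, where 51% of all genes were, and their median was 0.18. Between lung Mϕ and lung DC, 17 of 32 were above 0, beside 50.8% of all genes, and the median was 0.01. The median over all genes was 0.00 in each comparison. Many genes on an array give little signal and ratios near 0, and since the values hold no levels, the share over all genes includes them.

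Hardly any gene of the list passed 2-fold. In each comparison 1 of 32 genes, 3.12%, was past 2-fold in either direction, against 9.96% of all genes in lung Mϕ over PBMo, 5.11% in lung DC over PBMo and 7.26% in lung Mϕ over lung DC. The gene was Dhcr7 in the first and Fads1 in the others. In lung Mϕ over PBMo, Dhcr7 at 1.04 was just past the threshold and Scap at 0.97 was just inside it. In lung DC over PBMo, Fads1 at 1.87 stood apart from Pmvk, the next, at 0.87.

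At a lower threshold, 1.5-fold, more genes of the list were higher in lung cells than in PBMo. In lung Mϕ over PBMo, 8 of 32 genes, 25%, were over 1.5-fold higher, against 10.4% of all genes, and these were Hmgcs1, Mvd, Hsd17b7, Dhcr7, Elovl6, Fads1, Srebf1 and Scap. Pmvk, at 0.58, lay at the limit. In lung DC over PBMo, 6 of 32, 18.8%, were over 1.5-fold higher, against 7.86% of all genes, and these were Pmvk, Idi1, Hsd17b7, Fasn, Fads1 and Scap. Over 1.5-fold lower were Acss2 alone in lung Mϕ over PBMo, against 8.48% of all genes, and no gene of the list in lung DC over PBMo, against 3.8% of all genes. Between the lung populations the list was close to all genes. Mvd and Srebf1, 6.25% of the list, were over 1.5-fold on the side of lung Mϕ, where 7.15% of all genes were, and Fads1 and Srebf2, again 6.25%, on the side of lung DC, where 8.49% were.

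**Figure D1:**
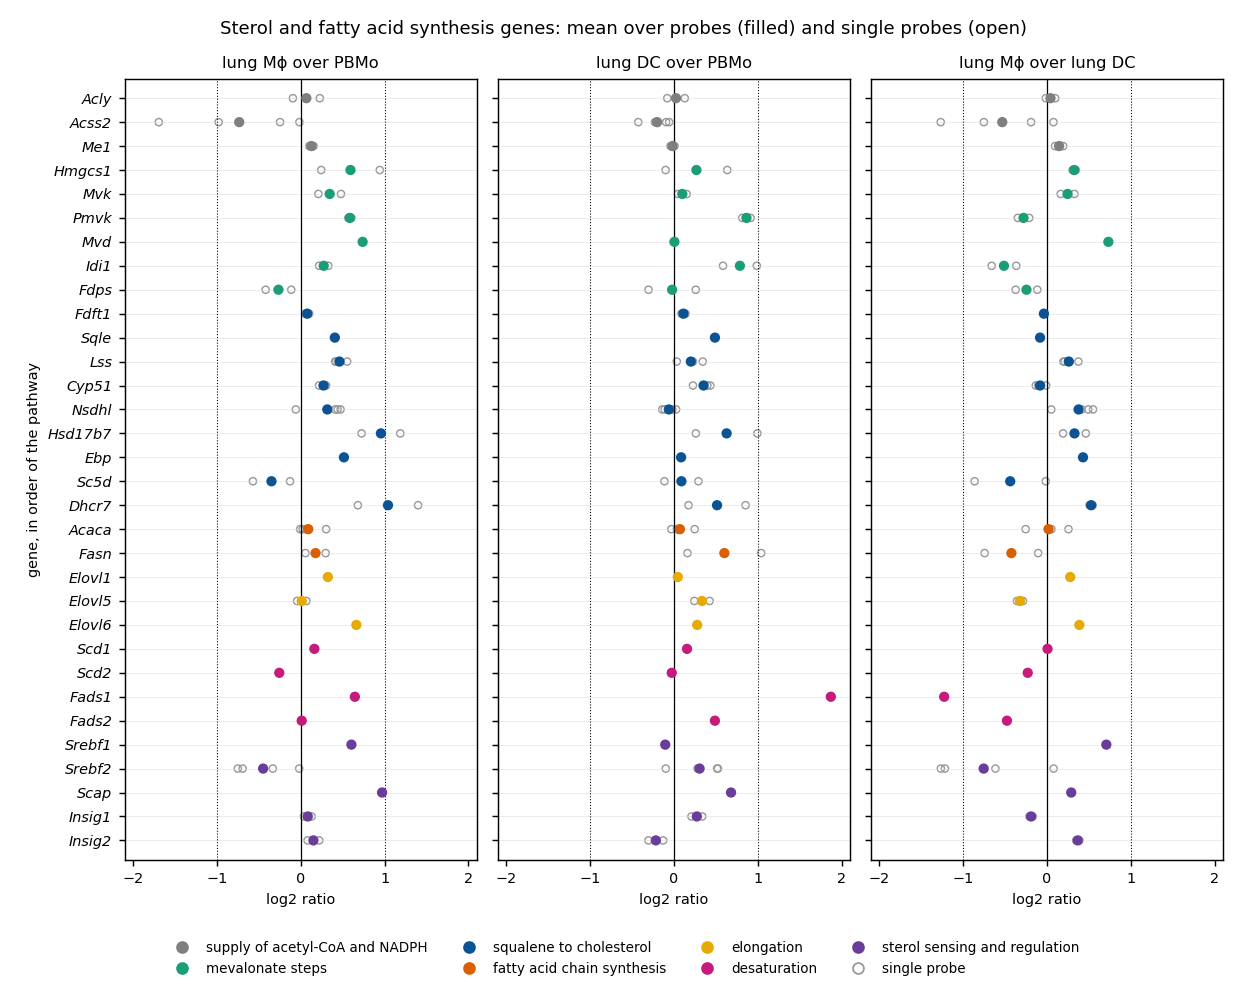
Log2 ratios of the 32 synthesis genes in the 3 comparisons, in the order of the pathway, with the mean over probes as filled points coloured by step and single probes as open points; dotted lines mark 2-fold. Most points of both comparisons with PBMo lie to the right of 0 and inside 2-fold, Dhcr7 reaches 1.04 in lung Mϕ over PBMo, and Fads1 reaches 1.87 in lung DC over PBMo.

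Of the genes that supply building blocks, a pair was near 0 and Acss2 was lower in lung Mϕ. Acly, which cleaves citrate to acetyl-CoA in the cytosol, had log2 ratios of 0.07 in lung Mϕ over PBMo, 0.02 in lung DC over PBMo and 0.04 in lung Mϕ over lung DC, with probes on both sides of 0 in each. Me1, the malic enzyme that yields NADPH, was at 0.13, -0.02 and 0.14 in the same order. Acss2, which makes acetyl-CoA from acetate, was the lowest gene of the list in lung Mϕ over PBMo at -0.73, with -0.20 in lung DC over PBMo and -0.53 in lung Mϕ over lung DC. The value of Acss2 depends on the probe. Both probes to its RefSeq transcript were well below 0 in lung Mϕ over PBMo, at -0.98 and -1.69, whereas probes to other transcript sequences were at -0.25 and -0.02. The mean of the RefSeq probes alone was -1.34 in lung Mϕ over PBMo and -1.01 in lung Mϕ over lung DC, past 2-fold in both.

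Of the 6 enzymes from acetoacetyl-CoA to farnesyl diphosphate, 5 were above 0 in lung Mϕ over PBMo and 5 in lung DC over PBMo, with medians of 0.46 and 0.18. Of all genes, 50.9% and 51% were above 0 in these comparisons. The genes that were higher differed between the lung populations. Mvd, the decarboxylase that forms isopentenyl diphosphate, was at 0.74 in lung Mϕ and 0.01 in lung DC against PBMo, and 0.73 in lung Mϕ over lung DC, on a single probe. Idi1, the isomerase of the next step, lay the other way, at 0.27 in lung Mϕ and 0.79 in lung DC against PBMo, and -0.51 between them. Pmvk, the second kinase of the mevalonate steps, was higher in both lung populations, with 0.58 in lung Mϕ and 0.87 in lung DC. Its probes agreed closely, from 0.57 to 0.60 and from 0.82 to 0.92. Hmgcs1, the synthase of the first step, was at 0.59 in lung Mϕ and 0.27 in lung DC against PBMo. Its probes, both to the RefSeq transcript, read 0.24 and 0.94 in lung Mϕ and -0.10 and 0.64 in lung DC, so that the sign in lung DC depends on the probe, while between lung Mϕ and lung DC they read 0.34 and 0.31. Mvk, the first kinase, was at 0.34 and 0.10 against PBMo. Fdps, which makes farnesyl diphosphate, was below 0 in both as a mean over probes, at -0.27 in lung Mϕ and -0.02 in lung DC. In lung DC over PBMo its probes read 0.26 for the RefSeq transcript and -0.30 for another sequence. The sign of Fdps in lung DC thus depends on the probe.

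From squalene to cholesterol, 8 of 9 enzymes were above 0 in lung Mϕ over PBMo and 8 of 9 in lung DC over PBMo, beside 50.9% and 51% of all genes. Their medians were 0.41 and 0.20, and the highest enzyme ratios of lung Mϕ were at late steps. Dhcr7, the reductase that forms cholesterol from its last precursor, was at 1.04 in lung Mϕ over PBMo, which is 2.06-fold, with probes at 0.68 and 1.40, and at 0.51 in lung DC over PBMo, with probes at 0.17 and 0.86. Although its probes differed by more than 0.6 in both comparisons with PBMo, they gave 0.51 and 0.54 for lung Mϕ over lung DC. Hsd17b7, a sterol ketone reductase, was at 0.96 in lung Mϕ over PBMo and 0.63 in lung DC over PBMo, with both of its probes above 0 in all 3 comparisons.

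The genes of the middle steps were higher to a smaller extent. Lss, the cyclase that forms lanosterol, was at 0.46 in lung Mϕ and 0.20 in lung DC against PBMo, with all 3 probes above 0 in both. Sqle, the squalene epoxidase, was at 0.41 and 0.49, and Cyp51, the lanosterol demethylase, at 0.27 and 0.35, so that both genes differed by only -0.08 between lung Mϕ and lung DC. Ebp, the sterol isomerase, and Nsdhl, which helps to remove methyl groups from the sterol ring, were at 0.51 and 0.32 in lung Mϕ over PBMo, compared with 0.09 and -0.06 in lung DC over PBMo. Fdft1, the squalene synthase, was near 0 throughout, with 0.08 in lung Mϕ and 0.11 in lung DC.

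Sc5d, the desaturase just before Dhcr7, was the only gene of these 9 below 0 in lung Mϕ over PBMo, at -0.35, and was at 0.09 in lung DC over PBMo and -0.44 in lung Mϕ over lung DC. Its probe to the RefSeq transcript read -0.57, 0.29 and -0.86 in these comparisons, and the other probe -0.13, -0.11 and -0.02. The neighbouring enzymes Sc5d and Dhcr7 therefore lay on opposite sides of 0 in lung Mϕ over PBMo and in lung Mϕ over lung DC, with every probe of each gene on its side.

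The 9 enzymes of fatty acid synthesis were less shifted in lung Mϕ than in lung DC. In lung Mϕ over PBMo their median was 0.16 and in lung DC over PBMo 0.28, with 8 of 9 above 0 in each, and in lung Mϕ over lung DC it was -0.23, with 4 of 9 above 0. The 15 sterol enzymes had medians of 0.41, 0.20 and 0.24, with 13 of 15 above 0 in each comparison with PBMo. Between lung Mϕ and lung DC they were split, with 8 of 15 above 0 and a median of 0.00 for the mevalonate steps. The shares of all genes above 0 were 50.9% in lung Mϕ over PBMo, 51% in lung DC over PBMo and 50.8% in lung Mϕ over lung DC. Whether the branches differ between the lung populations could not be tested.

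Acaca, the carboxylase that commits acetyl-CoA to fatty acids, was near 0, at 0.09 in lung Mϕ and 0.07 in lung DC against PBMo over 5 probes. Fasn, the synthase, was at 0.18 in lung Mϕ over PBMo and 0.60 in lung DC over PBMo. Its probes to the same transcript read 0.16 and 1.04 in lung DC over PBMo, the widest range of the list in that comparison. Of the elongases, Elovl6, which lengthens saturated and monounsaturated chains, was highest in lung Mϕ, at 0.66 against PBMo, with 0.28 in lung DC. Elovl1, which acts on very long chains, was at 0.32 and 0.05. Elovl5, which acts on polyunsaturated chains, had the reverse order, with 0.01 in lung Mϕ and 0.33 in lung DC.

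The desaturases of polyunsaturated fatty acids were highest in lung DC. Fads1, the enzyme of the last step to arachidonic acid, was at 1.87 in lung DC over PBMo, which is 3.66-fold, at 0.64 in lung Mϕ over PBMo and at -1.23 in lung Mϕ over lung DC, the furthest from 0 of any gene of the list there. Fads2, which introduces the first double bond of the same route, was at 0.49 in lung DC over PBMo, 0.01 in lung Mϕ over PBMo and -0.48 in lung Mϕ over lung DC. With Elovl5, which lengthens the chain between these desaturases, all 3 genes of the route were highest in lung DC. Fads1 and Fads2 each rest on 1 probe. The stearoyl-CoA desaturases, which make monounsaturated fatty acids, did not share this order. Scd1 was at 0.16 in both lung populations against PBMo, and Scd2 was at -0.26 in lung Mϕ and -0.03 in lung DC.

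**Figure D2:**
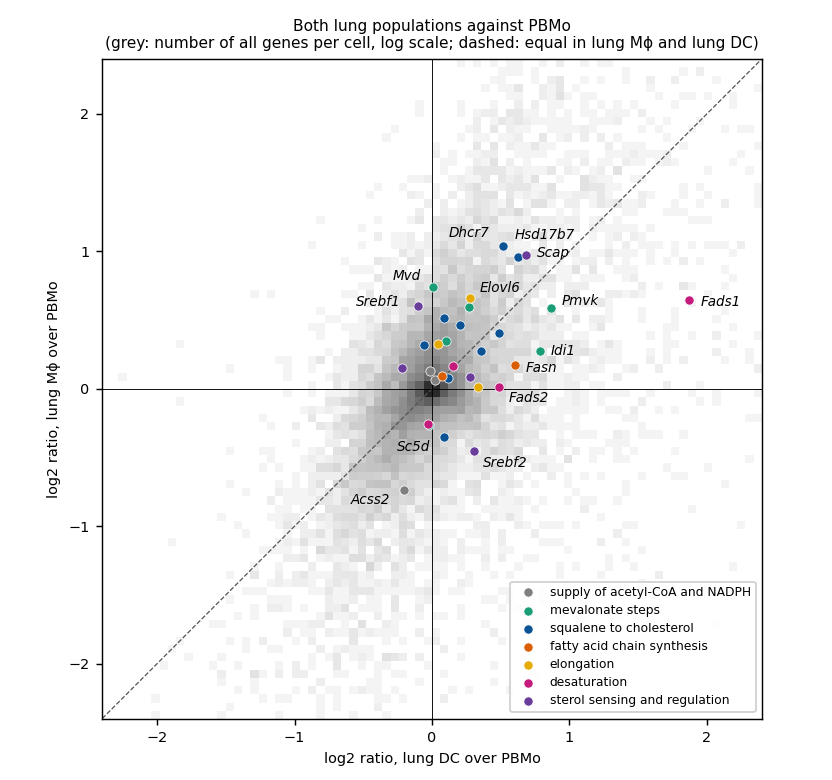
Log2 ratio of lung Mϕ over PBMo (vertical) against that of lung DC over PBMo (horizontal) for the 32 synthesis genes, coloured by step, on the density of all genes in grey; 465 genes lie beyond the axes. Both axes share PBMo, so a slope along the dashed line is built in; genes above that line, such as Dhcr7, Mvd and Srebf1, have positive ratios of lung Mϕ to lung DC, and those below it, such as Fads1, Idi1 and Srebf2, have negative ones.

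The regulators did not move as a block. Scap, the escort protein, followed Dhcr7 as the next highest gene of the list in lung Mϕ over PBMo at 0.97 and was at 0.68 in lung DC over PBMo, on 1 probe. Srebf1, whose product acts mainly on genes of fatty acid synthesis, was at 0.60 in lung Mϕ over PBMo and -0.10 in lung DC over PBMo, and at 0.71 in lung Mϕ over lung DC, also on 1 probe. Srebf2, whose product acts mainly on genes of sterol synthesis, lay the other way, at -0.45, 0.31 and -0.76. As means over probes, the ratios of Srebf1 and Srebf2 thus ran in opposite directions in all 3 comparisons, though not for every probe of Srebf2.

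The value of Srebf2 rests on which of its 4 probes are read. Those to other transcript sequences gave -0.75 and -0.69 in lung Mϕ over PBMo, 0.52 and 0.53 in lung DC over PBMo, and -1.27 and -1.22 in lung Mϕ over lung DC. Those to the RefSeq transcript gave -0.02 and -0.33, then -0.10 and 0.28, and then 0.08 and -0.62. Over the RefSeq probes alone the mean was -0.18 in lung Mϕ over PBMo, 0.09 in lung DC over PBMo and -0.27 in lung Mϕ over lung DC, which kept the direction at a smaller size. Insig1, itself a known target of the pathway that it restrains, was at 0.08 in lung Mϕ and 0.27 in lung DC against PBMo. Insig2 was at 0.15 and -0.22, with both probes on the same side of 0 in each comparison.

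Ordering the 3 cell types for each gene by its ratios put PBMo at the bottom for most of the list. PBMo had the lowest relative level for 23 of 32 genes, 71.9%, against 33.2% of all genes, and the highest for Acss2, Fdps and Scd2 only, 9.38%, against 31.3% of all genes. Lung Mϕ had the highest level for 17 of 32, 53.1%, against 37.8% of all genes, and lung DC for 12 of 32, 37.5%, against 30.9%. An order is given for every gene however small its ratios, as for Acly, whose ratios were all under 0.1. Fdps was placed by its mean over probes, whereas its RefSeq probe alone would put it highest in lung DC. The comparisons share their cell types, so the order adds no evidence to the ratios above.

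**Figure D3:**
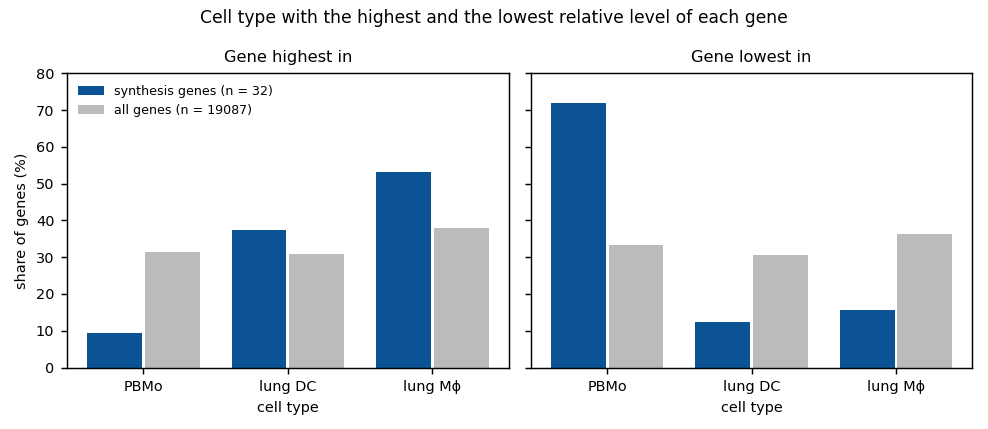
Share in percent of the 32 synthesis genes (blue) and of all 19087 genes (grey) whose relative level was highest (left) or lowest (right) in each cell type. PBMo was lowest for 71.9% of the synthesis genes and 33.2% of all genes.

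Agreement between probes limits how single genes can be read. Mvd, Sqle, Ebp, Elovl1, Elovl6, Scd1, Scd2, Fads1, Fads2, Srebf1 and Scap each rest on 1 probe, so that no agreement can be read for them. Of the 21 genes with several probes, all probes had the same sign for 17 in lung Mϕ over PBMo, 13 in lung DC over PBMo and 17 in lung Mϕ over lung DC. Probes of opposite sign in lung DC over PBMo belonged to Acly, Me1, Hmgcs1, Fdps, Nsdhl, Sc5d, Acaca and Srebf2, none of which was over 1.5-fold there. The widest range was that of Acss2, 1.68 in lung Mϕ over PBMo and 1.35 in lung Mϕ over lung DC.

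Other genes of lipid metabolism were read beside the list. A further list of synthesis genes, among them other elongases, acyl-CoA synthetases and the proteases that cleave the sterol regulatory element binding proteins, had 32 of 35 genes measured and medians of 0.01, 0.01 and 0.02 in the 3 comparisons. Furthest from 0 in lung Mϕ over PBMo and in lung Mϕ over lung DC was Lbr, a sterol reductase that is also a protein of the nuclear envelope, at -3.39 and -2.50, and it was at -0.89 in lung DC over PBMo. Mid1ip1, which activates the carboxylase ACACA, was at -1.71 and -1.03 against PBMo. The dehydratases of chain elongation differed from each other, with Hacd3 at 1.33 in lung Mϕ and 0.59 in lung DC against PBMo, and Hacd4 at -0.95 and -1.56. Lbr, Mid1ip1 and Hacd3 each rest on 1 probe, and Hacd4 on 3.

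The lists named cholesterol export and storage and fatty acid oxidation had larger median ratios in lung Mϕ over PBMo than the synthesis genes. The measured genes of the former were Abca1, Abcg1, Nr1h3, Apoe, Mylip, Npc1, Npc2, Lipa, Nceh1 and Pparg, the last of which was also counted among the alveolar macrophage markers. Of these 10, 6 passed 2-fold upwards and 1 downwards in lung Mϕ over PBMo, and the median was 1.15, against 0.27 for the synthesis genes. Among all 19087 genes, 1044 passed 2-fold upwards and 857 downwards in lung Mϕ over PBMo, and 50.9% were above 0. In lung DC over PBMo, 767 passed 2-fold upwards and 209 downwards. Abcg1 and Abca1, which export cholesterol, were at 4.88 and 2.69 in lung Mϕ over PBMo and lower, though still past 2-fold, in lung DC over PBMo, and Nceh1, which hydrolyses stored cholesterol esters, was at 4.40 and 1.66. The gene past 2-fold downwards was Apoe, the acceptor apolipoprotein, at -3.46 in lung Mϕ over PBMo and -0.15 in lung DC over PBMo. Npc2, which carries cholesterol out of lysosomes and is named here after its values were seen, was the other gene below 0 in lung Mϕ over PBMo, at -0.60, and was at -0.79 in lung DC over PBMo. Of 19 measured genes of fatty acid oxidation, all were above 0 in lung Mϕ over PBMo and 8 were more than 2-fold higher, with a median of 0.92, and in lung DC over PBMo none of them passed 2-fold and the median was 0.16. Ehhadh of the peroxisome, at 1.89 in lung Mϕ over PBMo and 0.48 in lung DC over PBMo, and Cpt2, the carnitine transferase of the mitochondrion, at 1.54 and -0.02, were among the highest, with Eci2 at 1.86 and Etfb at 1.51 in lung Mϕ. Dhcr7, the highest of the 32 synthesis genes described here in lung Mϕ over PBMo at 1.04, was thus below each of these 4 oxidation genes. These 4 were named for their large ratios, and Hacd3 of the further synthesis list, at 1.33, was above Dhcr7. Each of the 4 rests on 1 probe, as do Abcg1, Abca1 and Nceh1. These lists were not tested against each other.

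**Figure D4:**
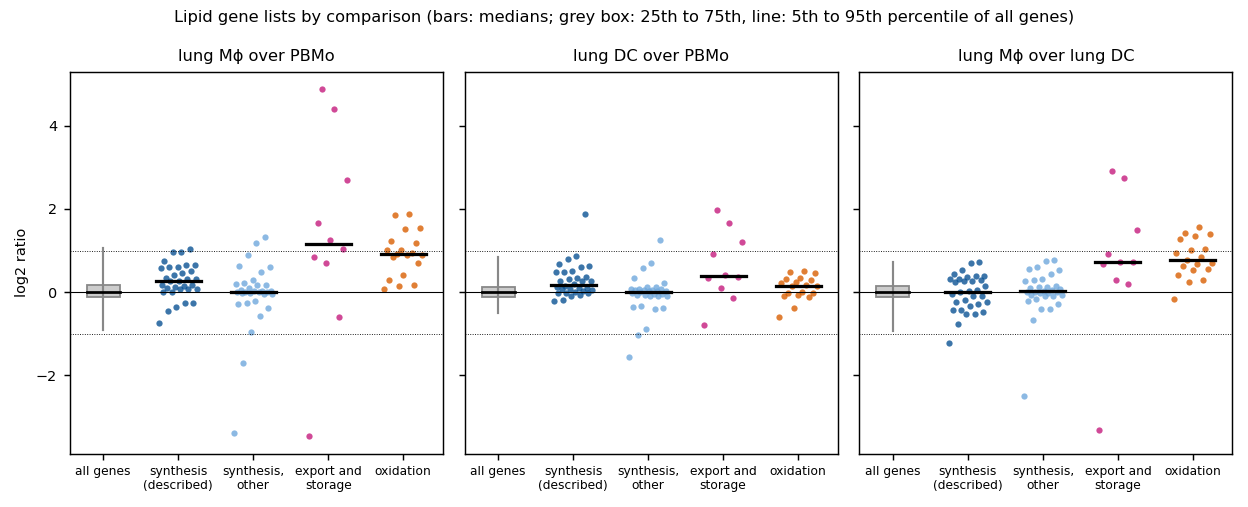
Log2 ratios of single genes in the lists of lipid metabolism, by comparison, with black bars at the medians; for all genes the grey box spans the 25th to 75th and the line the 5th to 95th percentile, and dotted lines mark 2-fold. In lung Mϕ over PBMo the median is 0.27 for the synthesis genes described here, 0.01 for the other synthesis genes, 1.15 for export and storage and 0.92 for oxidation.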

How the data were processed

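The deposited values are log2 ratios, 1 per spot and comparison. According to their methods, the authors scanned 2-colour arrays, weighted the spots, subtracted local background by a method with a constant offset, applied LOESS within arrays and fitted all hybridizations together with limma, whose version is not given in the sources used here. No counts or intensities were analysed, so the depth of signal behind a ratio is unknown, and the number of pools limits the precision.

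The rows of the table and the annotated features were numbered differently. Of 32 orders of the spots, the one in which probes of the same transcript agree best was taken, after the values had been seen. The share of variance between 5899 transcripts was 0.907 in this order, 0.413 in the next best and 0.389 as numbered. Of 33709 annotated probes, 33653 had 1 gene symbol and 56 with several were left out. Probes were averaged per gene, and 10744 of 19087 genes had 1 probe. A gene was counted past 2-fold, or past 1.5-fold where stated, by its ratio alone.

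The genes and lists were chosen with earlier results of these data known. All members with a probe are named, and of the other lipid lists up to 4 genes with the largest absolute ratio in any comparison. Alternatives were the median or the largest of the probes, columns centred on their median, thresholds of 1.5-fold and 4-fold, and the list without regulators, and, chosen after seeing the data, probes to RefSeq transcripts only. The recovery of the order and the counts were checked on simulated data. Python 3.11.15, numpy 2.4.6, pandas 2.3.3 and matplotlib 3.10.9 were used.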

Additional observations from a re-analysis of the deposited data

How the results depend on the processing

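The count of synthesis genes past 2-fold, 1 of 32 in each comparison, moved with some settings and not with others. With the largest probe of each gene it was 3 in lung Mϕ over PBMo (Acss2, Hsd17b7 and Dhcr7), 2 in lung DC over PBMo (Fasn and Fads1) and 3 in lung Mϕ over lung DC (Acss2, Fads1 and Srebf2), a setting that raises the share of all genes as well, to 13.1%, 6.81% and 9.61%. With RefSeq probes only, which were chosen after seeing the data, it was 2 in lung Mϕ over PBMo and 2 in lung Mϕ over lung DC. Acss2 was added in both, and at this setting 11.4% and 8.57% of all genes were past 2-fold. At 1.5-fold in either direction it was 9, 6 and 4, for which the shares of all genes are given above by direction. At 4-fold it was 0 in each of the 3 comparisons, and the share of all genes past 4-fold is not given here. The median of lung DC over PBMo, 0.18, became 0.29 with the largest probe and 0.26 with RefSeq probes. Centring the columns, the median over probes and leaving out the regulators moved neither these counts nor the medians of the list beyond the spread between probes. Of 96 single values, 44 moved beyond that spread with the largest probe, 19 with RefSeq probes, 7 with the median over probes and 0 with centring. Many of the 96 could not move with the choice of probes. Only 21 of the 32 genes had several probes, and for genes with 2 probes the median is the mean. RefSeq probes alone could change only genes that also had a probe to another sequence. Centring shifted each column by only 0.002 to 0.003, so it could move little. The table holds no replicates, so that leaving out a replicate gave no value, and leaving out Acat2 changed nothing because it had none.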

Other observations

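Acat3, a thiolase closely related in sequence to Acat2 and not on the list, had log2 ratios of 0.34 in lung Mϕ over PBMo, 0.15 in lung DC over PBMo and 0.19 in lung Mϕ over lung DC, as the mean of 2 probes. Fads3, a gene of the same family as Fads1 and Fads2 and named after its values were seen, was at 1.19 in lung Mϕ over PBMo, 1.24 in lung DC over PBMo and -0.06 in lung Mϕ over lung DC. Its ratio between the lung populations was thus near 0, where those of Fads1 and Fads2 were -1.23 and -0.48.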
